A study of Mus musculus with 16 samples.

Results

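The 10 genes described here encode structural proteins of microfibrils and elastic fibres: *Mfap5*, *Mfap4*, *Mfap2*, *Fbn1*, *Eln*, *Fbln1*, *Fbln2*, *Fbln5*, *Efemp2* and *Emilin1*. They were taken by symbol from 49066 genes measured by bulk RNA sequencing of brown adipose tissue (BAT). *Mfap5* had stood out in an earlier comparison of male KO with male WT mice in these same libraries, and the other 9 were listed around it for their place in the same fibres. The values of these 10 genes in comparisons with male KO libraries are therefore given as a description, without p-values, and they were tested only between female KO and WT and between WT sexes. The WT sex test reuses the male WT libraries of that earlier comparison, so for *Mfap5* it is not independent of the choice. Other genes of the pathway were tested in every comparison. Their list was also drawn up with earlier results of these data known, so their tests are not independent of those results.

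GDF15 BKO (KO) mice carried *Gdf15* fl/fl alleles and the *Ucp1*-Cre transgene Tg(Ucp1-cre)1Evdr, which removes *Gdf15* only where the *Ucp1* promoter is active, that is in thermogenic adipocytes. WT littermates carried the same floxed alleles without Cre. All were C57BL6/J mice that went on to a high-fat diet (HFD) at 6 weeks of age, stayed on it for 12 weeks and were 18 weeks old at collection. Each genotype was represented by 4 males and 4 females, with 1 library per mouse. Levels are in TPM, read abundance divided by transcript length and scaled to a fixed total per library, so that genes can be compared within a library. TPM keep no record of read numbers, and the depth behind a value is unknown.

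Microfibrils are thin filaments of fibrillin, the product of *Fbn1*, to which the microfibril-associated proteins MFAP2, MFAP4 and MFAP5 bind. Elastic fibres form when tropoelastin, the product of *Eln*, is laid down on microfibrils and crosslinked by lysyl oxidases, a step that the fibulins FBLN5 and EFEMP2 (fibulin-4) assist. In adipose tissue these proteins come mainly from stromal and vascular cells and not from adipocytes, and they surround vessels and cells.

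The targeted gene and the tissue were checked first. *Gdf15* was at 0.368 to 3.81 TPM in male WT and 0.0801 to 0.272 TPM in male KO libraries, and at 0.0622 to 0.311 TPM in female WT libraries. In females, 3 KO libraries were listed at 0 and female KO 3 was at 0.0794 TPM, above female WT 1 at 0.0622 TPM, so the female groups overlapped by that pair while the male groups did not overlap. *Ucp1*, the uncoupling protein that defines brown adipocytes, was at 2350 to 4420 TPM over the 16 libraries. Between 34.5 and 59.8% of TPM came from the mitochondrial genome, and in female WT 4 the most abundant transcript, which was not matched to a gene, took 16.5%, so that the TPM of the other genes of that library are lower by about that much. Skeletal muscle markers summed to between 1.84 and 3700 TPM, with high and low libraries in every group. No marker of the 14 cell type lists was at 0 in every library.

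Sequence that bears on the results is shown for *Fbln2* and for 3 start sites. The coding transcripts Fbln2-201 and Fbln2-202 differ by exon 9 of Fbln2-201, which lies at chr6:91259630-91259770 on the plus strand of GRCm38 (GENCODE release M21), is 141 bases or 47 codons long and keeps the reading frame. It is printed because the proportion of coding *Fbln2* TPM without it did not overlap between female KO and female WT libraries. Capitals mark the exon, and lower case the 30 bases on either side of it in the transcript.
Fbln2-201 exon 9: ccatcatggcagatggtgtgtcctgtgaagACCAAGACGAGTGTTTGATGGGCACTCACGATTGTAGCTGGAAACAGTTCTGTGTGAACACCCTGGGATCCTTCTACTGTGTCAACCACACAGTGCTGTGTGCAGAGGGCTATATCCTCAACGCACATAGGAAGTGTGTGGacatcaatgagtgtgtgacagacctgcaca
Their lengths differ by 1 further base.

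RefSeq promoters of GRCm38.p6 were found for 7 of the 10 genes, and *Mfap5*, *Mfap4* and *Eln* had no entry. The 250 bases before the start are printed for *Fbn1* (chr2:125506439-125506688, minus strand), *Fbln5* (chr12:101818485-101818734, minus strand) and *Efemp2* (chr19:5474440-5474689, plus strand). Their RefSeq starts lay 53, 16 and 2 bases from the start of the leading coding transcript, and they are shown because *Fbn1* was lower and both fibulins were higher on average in female KO libraries. Capitals mark the GC box GGGCGG, searched on both strands, and copies can overlap.
Fbn1: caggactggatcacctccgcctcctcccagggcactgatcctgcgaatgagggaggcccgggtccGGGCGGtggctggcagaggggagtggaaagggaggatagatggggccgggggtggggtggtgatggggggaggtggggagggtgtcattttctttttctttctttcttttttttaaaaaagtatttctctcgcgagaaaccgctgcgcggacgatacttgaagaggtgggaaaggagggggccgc
Fbln5: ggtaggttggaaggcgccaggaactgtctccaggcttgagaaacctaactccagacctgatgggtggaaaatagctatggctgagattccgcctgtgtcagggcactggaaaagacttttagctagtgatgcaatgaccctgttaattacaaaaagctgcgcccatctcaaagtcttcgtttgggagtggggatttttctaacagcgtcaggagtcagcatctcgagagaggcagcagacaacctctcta
Efemp2: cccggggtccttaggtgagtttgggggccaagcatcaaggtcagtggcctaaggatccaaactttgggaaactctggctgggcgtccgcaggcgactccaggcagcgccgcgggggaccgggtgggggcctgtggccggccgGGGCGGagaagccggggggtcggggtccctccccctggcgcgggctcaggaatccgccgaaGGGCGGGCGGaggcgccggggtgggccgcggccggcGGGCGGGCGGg
The *Fbn1* window held 1 GC box, the *Efemp2* window held 5 and the *Fbln5* window held none. Another RefSeq window of *Fbln5*, whose start lay 651 bases from that of the leading coding transcript, held 2. The GC box was in 8 of the 12 windows of members and in 32.7% of all 32851 promoters of this length in the RefSeq table. The 12 windows belong to 7 genes, and some windows of the same gene overlap. None of the 12 windows of members held the TATA box TATAAA (12.4% of all promoters), the AP-1 site TGANTCA (6.75%), the SMAD box GTCTAGAC (0.167%) or a CArG box (1.47%), and 1 *Mfap2* window held the TEAD site GGAATG (12.6%). These matches describe the letters of the windows only.

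The genes lie on separate chromosomes except for *Mfap5* and *Fbln2* on chromosome 6 and *Eln* and *Emilin1* on chromosome 5. *Fbn1* is on chromosome 2, *Mfap2* on 4, *Mfap4* on 11, *Fbln5* on 12, *Fbln1* on 15 and *Efemp2* on 19. The order of their levels was led by *Fbln2*, *Eln* and *Fbln5*. Over the 16 libraries *Fbln2*, whose protein bridges fibrillin and other matrix proteins, had the highest mean at 13.3 TPM and made up 28.7% of the summed TPM of the 10 genes. It was above *Eln* (7.93 TPM) in 16 of 16 libraries, with a mean log2 ratio of 0.79 ± 0.28 (SD). *Eln* and *Fbln5* (7.40 TPM) could not be ordered, since the log2 ratio was 0.02 ± 0.33 and *Eln* was the higher in 10 of 16 libraries. *Mfap5* (5.43 TPM) and *Efemp2* (4.37 TPM) could not be ordered either, with a log2 ratio of 0.17 ± 0.50. *Efemp2* was above *Emilin1* (2.95 TPM) in 16 of 16 libraries, while *Emilin1* was above *Fbn1* (2.30 TPM) in only 11. *Mfap2* (1.58 TPM), *Fbln1* (0.898 TPM) and *Mfap4* (0.521 TPM) had the lowest means. The order was not the same in every group. Counting from the highest level, *Mfap5* was 5 in male WT, behind *Efemp2* in 4 of 4 libraries, and 3 in male KO, where its log2 ratio to *Fbln5* was 0.07 ± 0.13.

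The summed TPM of the 10 genes was 24.8, 42.7, 30.7 and 40.5 in male WT, and between 53.8 and 65.7 in male KO. In females it was between 33.2 and 40.1 in WT, and 75.9, 37.2, 45.6 and 64.8 in KO. The male KO and WT sums did not overlap, and the female KO sums spread from within the WT range to well above it.

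**Figure D1:**
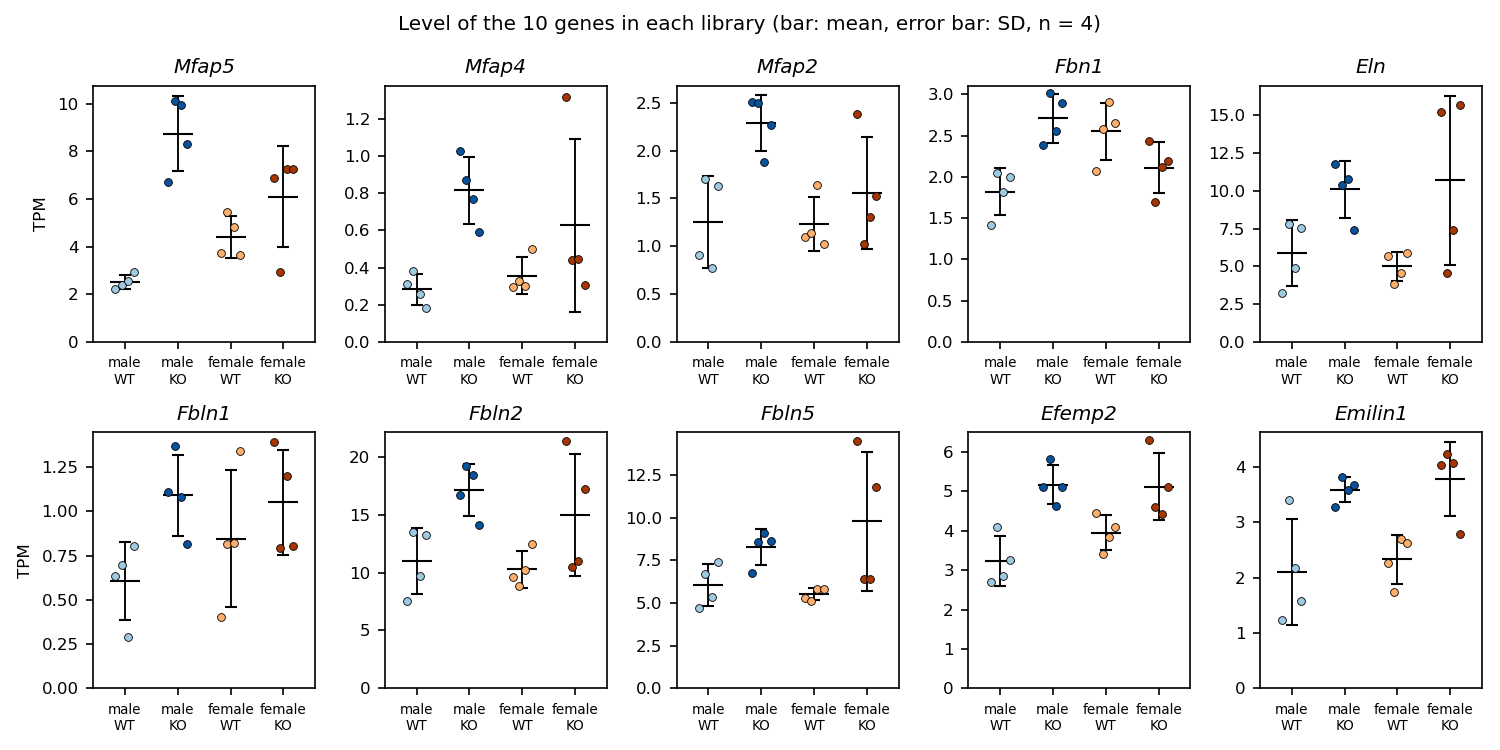
Level of each of the 10 genes in TPM (linear axis from 0) in the 4 libraries of each group; points are libraries, horizontal bars the mean and error bars the SD. *Mfap5* is at 2.21 to 2.91 TPM in male WT and 6.69 to 10.1 TPM in male KO, and the female KO points of *Eln* spread from 4.58 to 15.7 TPM.

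In males, every member was higher on average in KO than in WT BAT, as were 79.9% of all genes tested. The 8 members at or above the minimum mean of 1 TPM had a median log2 difference, on the log2(TPM + 0.5) scale, of 0.68, beside 0.16 over all 12176 genes. This scale understates the change of low genes. With median-of-ratios scaling, which put the median of all genes at 0.0, the median of the members was 0.53. KO and WT libraries did not overlap for 5 of these 8, beside 9.55% of all genes with KO above WT. The rule that chose the list used this contrast, so nothing is read from these counts. With *Fbln1* and *Mfap4*, which lay below the minimum and come from a fit without it, 7 of 10 did not overlap.

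The microfibril genes included the gene with the largest male difference. *Mfap5*, which encodes a fibrillin-binding glycoprotein, was at 2.21, 2.37, 2.55 and 2.91 TPM in male WT and 6.69, 10.1, 9.92 and 8.30 TPM in male KO. Every KO library was above every WT library, the ratio of the means was 3.48 and the log2 difference 1.61 ± 0.14 (SE, n = 4 and 4). *Mfap2* went from 1.25 ± 0.481 to 2.29 ± 0.295 TPM (SD, n = 4 each), a log2 difference of 0.71 ± 0.21 (SE). *Mfap4* was low throughout, at 0.180 to 0.381 TPM in WT and 0.592 to 1.03 TPM in KO. *Fbn1*, the backbone of the microfibril, was at 1.42, 2.04, 1.81 and 2.0 TPM in WT and 2.38, 3.02, 2.55 and 2.89 TPM in KO. None of these 4 genes overlapped between the male groups, and the *Fbn1* difference of 0.47 ± 0.14 (SE) was the smallest of the 4.

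Elastin and the proteins that join it to microfibrils followed with smaller differences than *Mfap5*. *Eln* was at 3.25, 7.84, 4.91 and 7.57 TPM in male WT and 11.8, 10.4, 10.8 and 7.42 TPM in male KO, with a log2 difference of 0.78 ± 0.26 (SE). Male KO 4 lay within the WT range of *Eln*. *Fbln5*, which binds tropoelastin and integrins, had a difference of 0.43 ± 0.15 (SE) and overlapped through 1 KO library. *Emilin1*, an elastin-interface glycoprotein, had 0.72 ± 0.23 (SE), and 3 of 4 KO libraries were above all WT libraries. *Fbln2* (0.65 ± 0.19), *Efemp2* (0.62 ± 0.13) and *Fbln1* (0.54 ± 0.20) did not overlap. Set against *Fbn1* in the same library, *Mfap5* was higher in male KO by 1.13 on the log2(TPM + 0.5) scale. The other 8 genes differed by between -0.04 (*Fbln5*) and 0.31 (*Eln*). Apart from the added 0.5, this removes the scaling of the library. The added 0.5 holds down the change of low genes such as *Mfap4*, listed at 0.27 in this measure. In mean TPM, the ratio of male KO to WT was 2.9 for *Mfap4*, 3.48 for *Mfap5* and 1.49 for *Fbn1*.

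The male values were also taken within the library-name prefix 9, whose meaning is not given, since it was carried by 2 WT and 3 KO libraries. All 10 members were higher in KO there, with a median log2 difference of 0.65 and 1.62 for *Mfap5*. The share of all genes that were higher within this prefix was not computed. Over all male libraries it was 79.9%, so nothing is read from this count. Of the marker lists, those of fibroblasts, adventitial and progenitor fibroblasts, smooth muscle, pericytes, endothelium and macrophages had higher mean sums in male KO. So had those of white adipocytes, skeletal muscle, nerve and cartilage. Of 3 white adipocyte genes tested, though, 1 was higher and 2 were lower on average, with a median log2 difference of -0.13. No cartilage gene reached a mean of 1 TPM, and the mean sum of that list was 0.101 TPM in WT and 0.438 TPM in KO. The sums were lower for brown adipocytes (6800 TPM in WT and 6640 TPM in KO), mesothelium, lymphocytes and committed preadipocytes (7070 and 6690 TPM). Most of the last sum was *Fabp4* (6830 TPM in male WT). By gene, 3 of 4 of that list were higher on average, with a median log2 difference of 0.32, beside 79.9% and 0.16 over all genes. The fibroblast list (8 of 8 genes at or above 1 TPM on average) summed to 280 to 567 TPM in male WT and 501 to 615 TPM in male KO, the smooth muscle list (6 of 6) to 32.5 to 75.6 and 57.9 to 94.7 TPM, and the macrophage list (7 of 7) to at most 76.9 TPM in WT and to 100, 146, 112 and 148 TPM in KO. In bulk tissue, more cells of a type and more RNA per cell cannot be told apart, and the part of these lists in the member values was not tested.

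In females, 7 of 8 tested members were higher on average in KO than in WT, and *Fbn1* was lower, beside 62.7% of all genes higher. None passed an adjusted p of 0.05 in limma with Benjamini-Hochberg adjustment, nor did any of the 12141 genes tested (0.0%), and the lowest adjusted p of a member was 0.231. At an unadjusted p under 0.05, 4 of 8 members were higher and none lower, beside 11.6% and 5.45% of all genes. The median log2 difference of the members was 0.42, beside 0.10 over all genes. KO and WT did not overlap for 2 of 8, *Fbln5* and *Emilin1*, beside 4.89% of all genes with KO above WT. The 4 with an unadjusted p under 0.05 were *Eln*, *Fbln5*, *Efemp2* and *Emilin1*, and only *Emilin1* was left when female WT 2, female KO 1 or female KO 4 was taken out. The percent of all genes that were higher at an unadjusted p under 0.05 also fell then, from 11.6 to 5.80, 5.42 and 6.38%. Without female WT 3, and with median-of-ratios scaling, 2 were left, *Emilin1* and *Fbln5*. That scaling also turned the share of all genes at an unadjusted p under 0.05 to 9.95% higher and 10.3% lower.

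*Emilin1* was at 2.26, 1.74, 2.70 and 2.62 TPM in female WT and 4.04, 4.24, 4.08 and 2.79 TPM in female KO. The lowest KO library was just above the highest WT library, and the log2 difference was 0.60 ± 0.17 (SE; limma adjusted p = 0.231). *Fbln5* was at 5.28, 5.14, 5.82 and 5.83 TPM in WT and 14.5, 6.38, 6.40 and 11.8 TPM in KO. All KO libraries were above all WT libraries, but 2 of them only slightly, and the log2 difference was 0.69 ± 0.25 (SE; limma adjusted p = 0.250). *Eln* was at 5.71, 3.86, 4.55 and 5.90 TPM in WT and 15.2, 4.58, 7.41 and 15.7 TPM in KO. Female KO 1 and 4 were far above the WT range, female KO 3 slightly above it and female KO 2 within it, for a log2 difference of 0.89 ± 0.36 (SE; limma adjusted p = 0.268). *Efemp2* went from 3.95 ± 0.440 to 5.12 ± 0.848 TPM (SD, n = 4 each), with a log2 difference of 0.33 ± 0.14 (SE; limma adjusted p = 0.272).

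The microfibril genes had no unadjusted p under 0.05 between the female groups in the fit reported, but *Mfap5* did without female KO 2 and with the library-name prefix as a covariate, and *Fbn1*, lower in KO, did with nuclear transcripts rescaled. *Mfap5* was at 3.72, 5.43, 4.83 and 3.63 TPM in female WT and 6.89, 2.91, 7.26 and 7.24 TPM in female KO. Female KO 2 was below every WT library while the other 3 were above all of them, and the log2 difference was 0.36 ± 0.27 (SE; limma adjusted p = 0.481), or 0.66 without female KO 2 (adjusted p = 0.144). *Fbn1* was at 2.07, 2.58, 2.91 and 2.65 TPM in WT and 2.43, 1.69, 2.12 and 2.19 TPM in KO, a log2 difference of -0.23 ± 0.15 (SE; limma adjusted p = 0.442). *Mfap2* had a difference of 0.23 ± 0.24 (SE), and *Mfap4*, below the minimum, 0.33 ± 0.26 (SE) with 1.32 TPM in female KO 1 and at most 0.447 TPM in the other KO libraries. *Fbln2* was at 8.80 to 12.5 TPM in WT and at 21.4, 10.5, 11 and 17.2 TPM in KO (0.48 ± 0.23, limma adjusted p = 0.322), and *Fbln1*, below the minimum, differed by 0.23 ± 0.25 (SE).

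**Figure D2:**
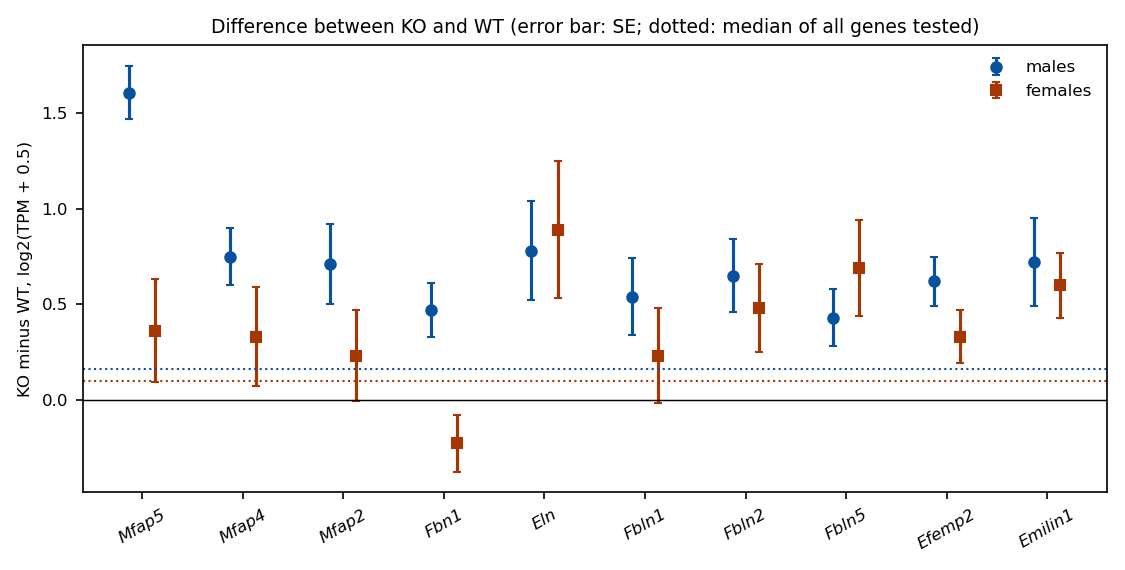
Difference between KO and WT of each gene on the log2(TPM + 0.5) scale in males (circles) and females (squares), with SE from 4 against 4 libraries; dotted lines are the medians over all genes tested (0.16 and 0.10). *Mfap5* stands at 1.61 in males and 0.36 in females, and *Fbn1* at 0.47 and -0.23.

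The spread among female KO libraries was shared by several members. *Eln*, *Fbln2* and *Fbln5* were all highest in female KO 1 and 4, and over the 16 libraries, after each group's mean was subtracted, *Eln* correlated with *Fbln2* at r = 0.91 and with *Fbln5* at r = 0.80. *Emilin1* did not share this order: its r was 0.12 with *Eln* and -0.19 with *Mfap5*. These correlations describe libraries that share their scaling, and 28 pairs were computed among the 8 members above 1 TPM. Several marker lists were also highest in female KO 1 and 4, and not only those of stroma and vessels. Brown adipocyte markers summed to 7200, 6550, 4710 and 7460 TPM in female KO 1 to 4. Nerve markers went the other way, at 76.5, 116, 105 and 44.0 TPM. The mitochondrial genome took 41.4, 49.5, 52.8 and 45.2% of TPM in these libraries, and its part in the sums was not tested. Smooth muscle markers summed to 39.7 to 57.6 TPM in female WT and to 133, 45.3, 97.1 and 138 TPM in female KO, endothelial markers to 118 to 157 TPM and 342, 196, 177 and 275 TPM, and markers of adventitial and progenitor fibroblasts to 96.0 to 147 TPM and 401, 164, 158 and 306 TPM. Most of the last sum was *Ly6c1*, which endothelial cells also express, at 370, 142, 133 and 275 TPM in female KO. The other genes of that list were mixed in female KO 1. *Dpp4* (0.154 TPM), *Sema3c* (0.131 TPM) and *Cd55* (3.21 TPM) were at their lowest female KO level there. *Anxa3* (20.5 TPM) and *Cd248* (3.06 TPM) were at their highest, and *Pi16* (3.98 TPM) was in between. The mesothelial list, of which no gene reached a mean of 1 TPM, was at 7.65 TPM in female KO 1, 6.93 TPM of it *Krt19*, while *Msln* was at 0.0597 TPM and *Wt1* was listed at 0. These genes were picked for naming after their values were seen. The part of these lists in the member values was not tested. Within the library-name prefix 10 (1 WT and 1 KO) all 10 members were higher in KO, with a median log2 difference of 0.96, and within prefix 8b (3 WT and 1 KO) 9 of 10 were, with a median of 0.19. Each rests on 1 KO library, which for prefix 10 is female KO 1. The share of all genes higher within a prefix was not computed, and over all female libraries it was 62.7%.

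**Figure D3:**
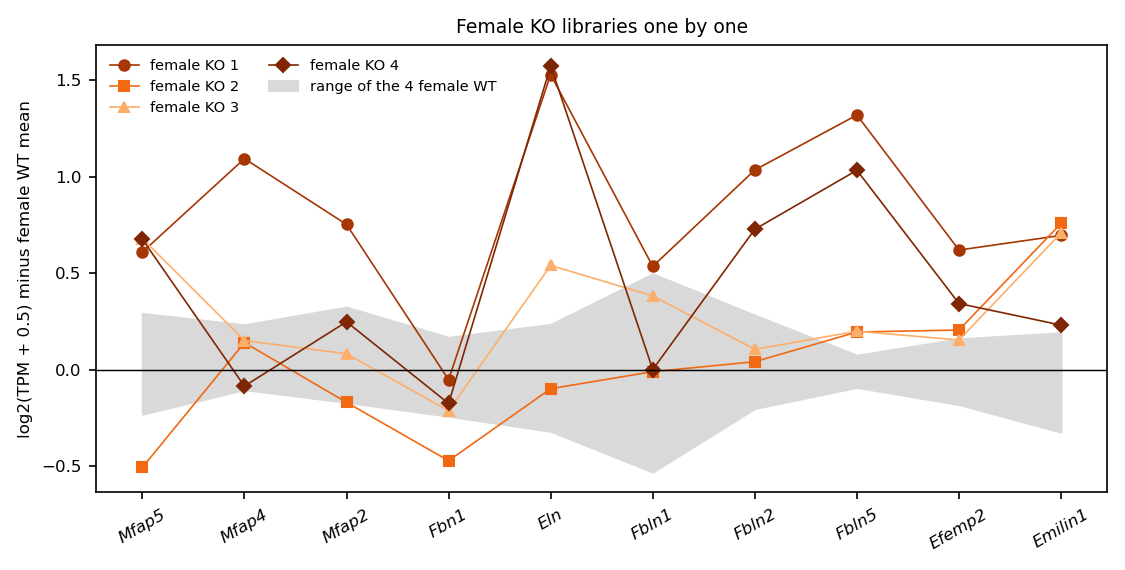
Each female KO library's log2(TPM + 0.5) minus the female WT mean for the 10 genes; the grey band is the range of the 4 female WT libraries and lines join the values of 1 library. Female KO 1 and 4 lie above the band for *Eln*, *Fbln2* and *Fbln5*, and female KO 2 lies below it for *Mfap5* (2.91 TPM).

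Set against *Fbn1* within each library, all 9 other members were higher in female KO than in female WT, by 0.45 (*Fbln1*) to 1.11 (*Eln*) on the log2 scale. In exact permutation tests, two-sided, p was 0.0286, the lowest that 4 against 4 libraries allow, for *Mfap2* (0.46), *Fbln2* (0.70), *Fbln5* (0.92) and *Emilin1* (0.83), and 0.114 for *Mfap5* (0.59). These 9 tests share the *Fbn1* values, and none passed 0.05 after Benjamini-Hochberg correction over them. With the smallest possible p at 0.0286, passing needs most of the 9 genes to be at that p. The correction therefore decides little for any single gene. *Fbn1* itself was lower in female KO (-0.23), which adds to every ratio, and *Mfap2* by its own level had a limma adjusted p of 0.599. Apart from the added 0.5, the scaling of a library cancels in them.

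Between male and female WT mice, *Mfap5* and *Fbn1* were the members that did not overlap. No member passed an adjusted p of 0.05 in limma, beside 0.0664% of 12042 genes, and at an unadjusted p under 0.05, 2 of 8 were lower in males and 0 higher, beside 1.25% and 2.17% of all genes. These were *Mfap5*, at 2.21 to 2.91 TPM in male and 3.63 to 5.43 TPM in female WT (log2 difference, males minus females, -0.69 ± 0.16 SE; limma adjusted p = 0.775), and *Fbn1*, at 1.42 to 2.04 and 2.07 to 2.91 TPM (-0.40 ± 0.16 SE; limma adjusted p = 1.0). *Fbn1* lost its unadjusted p under 0.05 without male WT 1 or 3 or female WT 2, 3 or 4, and *Mfap5* kept it as each library was left out in turn. Both were lower in every male than in every female library, beside 0.722% of all genes with such a gap. *Eln* (0.16 ± 0.26), *Fbln5* (0.10 ± 0.15) and *Fbln2* (0.06 ± 0.20) overlapped. The median over the 8 members was -0.09, beside 0.05 over all genes. No library-name prefix was shared by male and female WT libraries, so prefix and sex cannot be told apart here. Against *Fbn1* in the same library, *Fbln2* (0.46) and *Fbln5* (0.50) were higher in male WT at the smallest exact permutation p of 0.0286. None of the 9 passed after correction, which needs most of the 9 to be at that p. This comparison uses the same female WT libraries as the female KO comparison. Its male WT libraries belong to the comparison in which *Mfap5* stood out. A gene chosen there may be low in male WT for that reason, so nothing is concluded from the *Mfap5* test.

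In KO mice the sexes overlapped for all 10 members. *Mfap5* was 8.74 ± 1.59 TPM in male KO and 6.08 ± 2.12 TPM in female KO (SD, n = 4 each), a log2 difference of 0.55 ± 0.27 (SE). The difference was 0.30 ± 0.13 for *Fbn1* and 0.47 ± 0.20 for *Mfap2*, and between -0.15 (*Fbln5*) and 0.29 (*Mfap4*) for the other 7. The KO effect in males minus that in females, which contains the contrast used to choose the list, was 1.24 ± 0.33 (SE) for *Mfap5*, 0.70 ± 0.19 for *Fbn1* and 0.48 ± 0.31 for *Mfap2*. It was between -0.26 (*Fbln5*) and 0.42 (*Mfap4*) for the others.

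The transcripts behind the gene values differed by member. Fbn1-201, a protein-coding transcript, carried 98.8% of *Fbn1* TPM on average. Transcripts annotated as retained introns or as targets of nonsense-mediated decay carried 54.7% of *Eln*, 45.7% of *Fbln2* and 41.0% of *Emilin1* TPM, and for *Fbln2* the leading transcript Fbln2-206 is a retained intron. The proportion of TPM in the leading transcript was compared for the 10 members in the female KO and the WT sex comparison, and the same was done among coding transcripts only. With the proportion in non-coding transcripts these are 30 exact two-sided permutation tests in each comparison. *Eln* and *Emilin1* have 1 coding transcript each, which is also their leading one. Their tests among coding transcripts therefore had a fixed outcome, and their non-coding proportion repeats the leading one. None of the 30 passed 0.05 after Benjamini-Hochberg correction over the members, and the p-values below are uncorrected. With a smallest possible p of 0.0286, passing needs most of the 10 members to be at that p.

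For *Fbln2*, the proportion among coding transcripts did not overlap between the female groups. Fbln2-202, which lacks the exon 9 printed above, carried 62.5, 54.9, 55.5 and 41.4% of coding *Fbln2* TPM in female WT and 75.1, 75.5, 63.4 and 73.9% in female KO. Every female KO library was above every female WT library, a difference of 18.4 percentage points (exact permutation p = 0.0286, the smallest possible). The difference was between 14.4 and 21.4 points when each library was left out in turn. In males the proportion was 61.0 ± 8.29% in WT and 55.6 ± 8.01% in KO (SD, n = 4 each). In TPM, Fbln2-202 went from 2.91 ± 0.522 to 5.85 ± 1.78 in females while Fbln2-201, with the exon, was at 2.45 ± 1.09 and 2.19 ± 0.509. The only coding transcript of *Emilin1* carried 74.5, 63.7, 63.4 and 88.3% of *Emilin1* TPM in male WT and 57.9, 58.6, 43.9 and 37.1% in female WT, without overlap (exact permutation p = 0.0286), and 67.4 ± 5.67% in male KO and 46.5 ± 8.96% in female KO (SD, n = 4 each). The TPM of kallisto share reads between overlapping transcripts by estimation, so these proportions carry an error that the deposited values do not give.

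**Figure D4:**
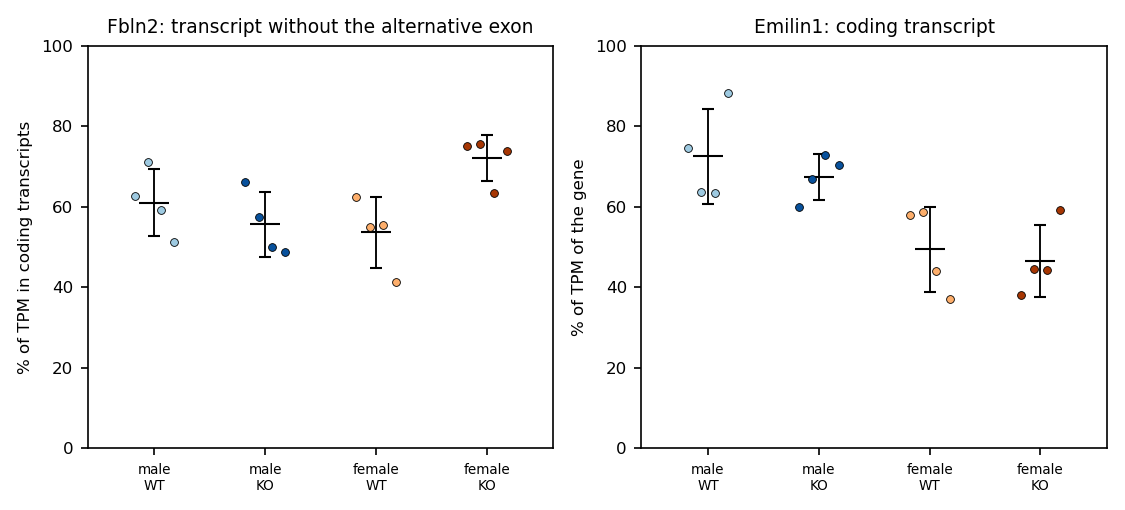
Percent of coding *Fbln2* TPM in the transcript without exon 9 (left) and percent of *Emilin1* TPM in its coding transcript (right) in each library; bars are means, error bars SD, n = 4. Female KO libraries sit at 63.4 to 75.5% for *Fbln2*, above the female WT libraries at 41.4 to 62.5%.

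The rest of the elastic fibre pathway was followed in a list of 56 other genes. Since this list was drawn up with earlier results known, its counts and p-values in comparisons with male KO libraries serve as a description. In males 31 were tested, and 28 were higher and 3 lower in KO on average, beside 79.9% of all genes higher. At an unadjusted p under 0.05, 19 were higher and none lower, beside 17.7% and 1.07% of all genes. None passed the adjusted threshold in limma (0.00821% of all genes). Their median log2 difference was 0.43, beside 0.16 over all genes. In females 30 were tested, 19 were higher and 11 lower on average, beside 62.7% of all genes higher, and 5 were higher and 4 lower at an unadjusted p under 0.05, beside 11.6% and 5.45% of all genes. None passed the adjusted threshold in limma, and the median was 0.12, beside 0.10 over all genes.

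The 3 genes of this list with the largest male differences were elastin-degrading proteases, while by role the EMILIN family had the larger median (0.83, 2 genes, against 0.77 for 7 proteases). *Mmp12*, the macrophage elastase, differed by 2.04 ± 0.48 (SE; limma adjusted p = 0.163), *Cela1* by 1.49 ± 0.39 and *Ctss*, a lysosomal elastolytic cathepsin, by 1.47 ± 0.25. On average 7 of 7 tested proteases were higher, beside 79.9% of all genes. *Ctsl* differed by only 0.05 ± 0.15, below the median of 0.16 over all genes. The crosslinking enzymes *Lox* (0.80 ± 0.29), *Loxl2* (0.68 ± 0.16) and *Loxl3* (0.62 ± 0.17) were among 4 of 4 that were higher in male KO on average, beside the same 79.9%. In females *Cela1* differed by -0.76 ± 0.31, *Ltbp2*, a latent TGF-beta binding protein relative, by -0.64 ± 0.27, *Lox* by -0.57 ± 0.25 and *Emilin2* by -0.54 ± 0.23 (SE), while *Loxl3* and the fibulin relative *Vwa1* differed by 0.70 ± 0.22 and 0.70 ± 0.19. The values of *Lox*, *Loxl2*, *Ltbp2*, *Emilin2* and *Ctsl*, and of *Loxl3* in males, were picked for naming after they were seen. Between WT sexes none of 29 tested genes passed, and 1, *Adamtsl5*, had an unadjusted p under 0.05 (-0.47 ± 0.18, males minus females), beside -0.48 ± 0.31 for *Emilin2* and -0.42 ± 0.38 for *Cela1*.

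Between KO males and KO females 8 of 31 tested genes were past an adjusted p of 0.05 in limma, all higher in males, beside 9.29% of 12269 genes in either direction. They were the proteases *Mmp12* (2.39 ± 0.42 SE, adjusted p = 0.0218), *Cela1* (1.82 ± 0.32, adjusted p = 0.0218) and *Ctss* (1.37 ± 0.19, adjusted p = 0.0153), the crosslinking enzyme *Lox* (1.60 ± 0.29, adjusted p = 0.0227), and *Emilin2*, *Ltbp3*, *Adamtsl5* and *Itgb5* with differences of 1.18, 0.75, 0.79 and 0.68. Macrophage markers summed to between 65.9 and 96.4 TPM in female KO, below all male KO libraries, and their part in these values was not tested. Over all genes, 1008 were called higher and 132 lower in KO males, and these counts depended on single libraries and on scaling. They were 24 and 4 without male KO 2, 1835 and 245 without female KO 2, and 312 and 237 with median-of-ratios scaling. The 8 genes were not followed through these fits. The KO effect in males minus that in females passed in limma for 0 of 31 genes after adjustment (0.0% of all genes) and was higher in males at an unadjusted p under 0.05 for 7, beside 11.7% of 12210 genes. The largest were *Cela1* (2.25 ± 0.53), *Mmp12* (2.07 ± 0.61) and *Emilin2* (1.66 ± 0.43), each at an adjusted p of 0.216.

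**Figure D5:**
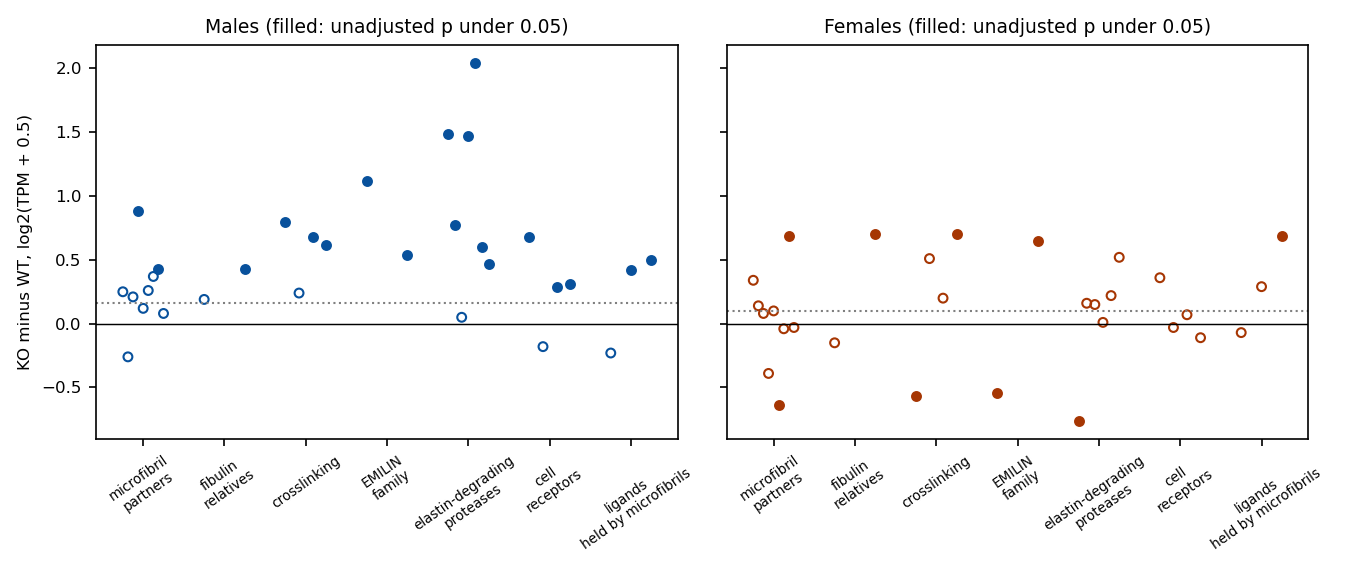
KO minus WT on the log2(TPM + 0.5) scale for the other elastic fibre genes tested, grouped by role, in males (left) and females (right); filled points have an unadjusted limma p under 0.05 and the dotted line is the median over all genes. In males 19 of 31 points are filled, all above 0, and in females 5 filled points lie above and 4 below 0.

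Genes most alike in their pattern were found for 3 members by Pearson r over the 16 libraries after each group's mean was subtracted, among 12210 genes. For *Mfap5* these were *Gm6710* (r = 0.81), *F13a1* (0.77), *Gm10060* (0.74), *Nbdy* (0.74) and *Col8a1* (0.74), and without subtracting the means r fell to 0.25 for *Gm6710* and 0.01 for *Gm10060* but was 0.76 for *F13a1*, the A chain of coagulation factor XIII. For *Fbn1* they were *Syne1* (0.88), *Col8a1* (0.87), *Nckap1l* (0.86), *Pggt1b* (0.86) and *Armc7* (0.85). Without subtracting the means r was 0.59, 0.52, 0.70, 0.58 and 0.84 in the same order, and in 14 libraries without the 2 farthest from the *Fbn1* median it was 0.19, 0.36, 0.55, 0.29 and 0.68. For *Eln* they included *Cdc42ep4* (0.98), *Ercc1* (0.94), *Lpin3* (0.93) and *Gnl2* (0.93), with r of 0.96 for *Cdc42ep4* without subtracting the means and 0.94 in 14 libraries without the 2 farthest from the *Eln* median. *Col8a1*, a short-chain collagen of vessel walls, was the gene named for both *Mfap5* and *Fbn1*.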

How the data were processed

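The authors extracted RNA from BAT, selected polyadenylated RNA, made stranded libraries and quantified single-end reads with kallisto 0.46.2. The deposited values are TPM per transcript, and GRCm39 is the build named in the submitters' processing notes. The annotation release is not given in the sources used here. Of 137438 transcripts, 135051 matched GENCODE M21 and were summed per symbol to 49066 genes, and 2387 did not match.

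Groups came from the labels. log2(TPM + 0.5) of genes with a mean of at least 1 TPM over the libraries of a comparison was fitted with limma 3.58.1 (R 4.3.3; lmFit, eBayes with trend) and Benjamini-Hochberg adjustment over all genes tested. The study's DESeq2 needs read counts and was not used. Proportions and ratios were tested by exact permutation (scipy 1.17.1). The limma step was tested on simulated data. The members and lists were chosen with earlier results of these data known. Named were all members, the targeted gene, *Ucp1*, listed genes past the adjusted threshold and up to 3 with the largest difference per comparison, and the 5 genes most alike *Mfap5*, *Fbn1* and *Eln*. A gene that this rule named is not reported here. Alternatives covered pseudocount, minimum, scaling, variance model, replicate block, library-name prefix, libraries in the fit and leaving out each library.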

Additional observations from a re-analysis of the deposited data

Results flagged for a closer look

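In 80 groups of 4 libraries, 40 of TPM and 40 of the proportion in the leading transcript, the gap of an extreme library to its neighbour was set against the range of the group. It was above Dixon's critical value in 4 groups, and chance alone gives about 1 in 20. *Mfap5* in female KO 2 was at 2.91 TPM, with a gap of 0.94 of the range below the other 3 female KO libraries. *Emilin1* in female KO 4 was at 2.79 TPM, with a gap of 0.88 of the range. The leading *Mfap4* transcript carried 87.6% of its TPM in male KO 2, and the leading *Fbn1* transcript 99.3% in male KO 3, where the other 3 male KO libraries carried all of it, as rounded, in that transcript.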

How the results depend on the processing

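No member passed the adjusted threshold in the female or in the WT sex comparison under any alternative run, and the lowest adjusted p of a member in females ranged from 0.11 to 0.571. Without each library in turn, the median log2 difference of the members was 0.55 to 0.79 in males, 0.29 to 0.58 in females, -0.25 to 0.04 between WT sexes and 0.11 to 0.37 for the KO effect in males minus females. It moved by more than the spread between replicates in 3 cases. In females it was 0.23 with nuclear transcripts rescaled (9 members tested), and with a minimum of 5 TPM it was 0.10 between WT sexes (3 members) and 0.03 for the difference of the KO effect (4 members). The smaller number of members tested is part of the construction of the minimum. With nuclear transcripts rescaled, the female median over all genes was also lower, at -0.04 beside 0.10 in the fit reported. The members' median lay above that of all genes by 0.27 there and by 0.32 in the fit reported. The cause of this move was not tested. The replicate numbers of the labels did not pair the libraries (r of deviations -0.08 to 0.35 in males and -0.12 to 0.15 in females). With the replicate block the medians stayed at 0.68, 0.42, -0.09 and 0.23, with 0 members past the adjusted threshold, and 5 of 8 female members were higher at an unadjusted p under 0.05, beside 12.1% of all genes. Single members kept their direction in 150 of 150 values in males and 150 of 150 in females, and in 131 of 140 between WT sexes, where *Emilin1*, *Fbln2*, *Fbln5* and *Mfap2* changed sign. Between KO sexes 147 of 167 values kept direction, and 197 of 206 for the difference of the KO effect. Counting only the coding transcripts of the members was chosen after seeing the data. The prefix covariate could not be fitted between WT sexes. TPM hold no depth, which limits the precision of *Mfap4* and *Fbln1* most.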
